A study of Sus scrofa with 599 samples.

Results

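The 9 interferon-stimulated genes ISG15, MX1, MX2, OAS1, OAS2, IFIT1, RSAD2, IFI44 and IRF7 were chosen by symbol, and all 9 were found among the 21280 protein-coding genes (PCGs) measured by RNA-seq. The 236 RNA-seq libraries came from adipose tissues (ATs) of female Bama miniature pigs about 2 years old. The visceral ATs were those of the mesentery (MAD), of the retroperitoneum (RAD) and of the greater omentum (GOM), and the subcutaneous AT was the upper layer of backfat (ULB). Pigs of the NC group ate a normal diet (9 libraries of GOM, 12 of MAD, 12 of RAD and 5 of ULB), and pigs of the WG group gained weight on high-fat feed over 22 weeks (45, 36, 39 and 38 libraries). Pigs of the WL group had the same high-fat feeding and then lost weight during 12 weeks of restriction to 10% of normal calories (10 libraries of each AT). Whole tissue was measured, so that fewer cells of a type and less RNA per cell cannot be told apart in any level below, and all pigs were females of a single breed.

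Type I interferons bind a cell-surface receptor of IFNAR1 and IFNAR2. The kinases JAK1 and TYK2 then activate a complex with STAT2 and IRF9, which binds the interferon-stimulated response element (ISRE) in front of target genes. The proteins made from these targets restrict virus growth, and both adipocytes and the immune cells of adipose tissue can respond. ISG15 is a ubiquitin-like protein that is attached to other proteins. MX1 and MX2 are dynamin-like GTPases that block virus entry into the nucleus or assembly, OAS1 and OAS2 make oligoadenylates after binding double-stranded RNA, and IFIT1 binds foreign RNA. RSAD2 (viperin) is a radical-SAM enzyme that makes a chain-terminating nucleotide, IFI44 is an interferon-induced cytoplasmic protein, and IRF7 is the transcription factor that amplifies interferon production.

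The core of the ISRE was searched in the reference promoters as GAAANNGAAA, where N is any base, on both strands, from 250 bases before the RefSeq gene start (Sscrofa11.1). It was present in 4 of the 9 genes (ISG15, OAS2, IFIT1 and RSAD2), against 3.563% of all 19534 promoters of the same length of 300 bases. The windows that hold the core are shown because they hold the letters of the element that the pathway is known to use, 5′ to 3′ on the strand of the gene with the core in capitals, as GAAANNGAAA or as its reverse complement TTTCNNTTTC.
ISG15, chr6:63363063-63363092, + strand: ttgggaaaagGAAACCGAAActgaagccga
ISG15, chr6:63363083-63363112, + strand: ctgaagccgaTTTCGATTTCggctcccgcg
OAS2, chr14:38847696-38847725, - strand: gccctgtgagTTTCCTTTTCccctgtgatg
IFIT1, chr14:101237384-101237413, + strand: cctactttaaTTTCACTTTCtactttcagt
RSAD2, chr3:128897920-128897949, - strand: ctgttccaatTTTCATTTTCacgagagcaa
The core of ISG15 in the first window began at -128 from the first base of the gene and overlapped a further match at -134. The core in its second window began at -108. The core began at -18 in OAS2, at -9 in IFIT1 and at -130 in RSAD2. A match is a description of the letters and not of a bound site, and the promoters without a match (MX1, MX2, OAS1, IFI44 and IRF7) lack only these letters in this window.

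ISG15 lies at chr6:63363201-63364211 and IFI44 at chr6:134634679-134649857. MX2 (chr13:204798633-204821612) and MX1 (chr13:204843049-204868927) are neighbours, as are OAS2 (chr14:38827667-38847697) and OAS1 (chr14:38851083-38867427). IFIT1 lies at chr14:101237403-101249486, RSAD2 at chr3:128880853-128897809 and IRF7 at chr2:372235-375572. MX1 with MX2, OAS1 with OAS2, and IFIT1 with other members of its family are related in sequence, so that the division of reads between them is uncertain.

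The counts on PCGs ranged from 3337098 to 22939420 per library. In 48 libraries PCGs took under 90% of the summed TPM (a level scaled for transcript length and for the sum of the library), and these were 7 of 9 in NC GOM, 8 of 10 in WL GOM and 7 of 10 in WL MAD, but 4 of 45 in WG GOM and 1 of 38 in WG ULB. The WG GOM library of replicate 35 stood apart, with the fewest counts and a median Spearman rho of 0.573 with its own group. In 5 libraries, the 5 B cell markers summed to over 1000 TPM (NC GOM replicate 6, WG MAD replicate 31, and WL MAD replicates 1, 6 and 7, at 2291 to 7670 TPM), against at most 735 in any other. The B cell marker CD79B had a median of 0 in NC GOM. All 6 adipocyte markers were found and none had a group median of 0, with summed medians of 7982 TPM (NC GOM) to 22827 TPM (WL RAD).

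All 9 genes were expressed in every AT. Over the 236 libraries the median level was highest for OAS1 (131 TPM) and IFIT1 (108 TPM), followed by MX2 (37.8 TPM), ISG15 (31.1 TPM), MX1 (27.01 TPM), IFI44 (23.1 TPM), OAS2 (21.3 TPM), RSAD2 (14.7 TPM) and IRF7 (7.04 TPM). Each gene was above 0.5 TPM in all libraries, except that ISG15 and RSAD2 were listed at 0 in WG GOM replicate 35. In that library MX1 was at 1.28 TPM, MX2 at 9.21 TPM, OAS1 at 22.4 TPM, OAS2 at 6.92 TPM and IFIT1 at 12.7 TPM. IFI44 was at 14.1 TPM, near the next lowest WG GOM library (14.2 TPM). IRF7 was at 75.4 TPM there, against 21.2 TPM at most in the other WG GOM libraries.

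The order of the 12 group medians began with an NC group for all 9 genes. The median of ISG15 spread most, from 10.3 TPM in NC GOM to 51.6 TPM in WG ULB, a ratio of 5.005. MX2 spread from 12.6 TPM in NC ULB to 52.5 TPM in WG RAD, a ratio of 4.15. The ratio was 2.35 for RSAD2 (NC GOM to WG ULB), 2.35 for IRF7 (NC GOM to WL MAD), 2.21 for MX1 (NC RAD to WL MAD), 2.12 for IFI44 (NC ULB to WG GOM), 1.85 for OAS1 (NC MAD to WG ULB) and 1.78 for IFIT1 (NC GOM to WG RAD). OAS2 differed least, from 16.6 TPM in NC MAD to 26.1 TPM in WG GOM, a ratio of 1.57. The ranges of neighbours in this order overlapped for each gene. Of the 66 pairs of groups, only NC GOM and NC ULB did not overlap for ISG15, and NC ULB and WL MAD for MX2. How many other PCGs had such pairs was not determined.

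**Figure D1:**
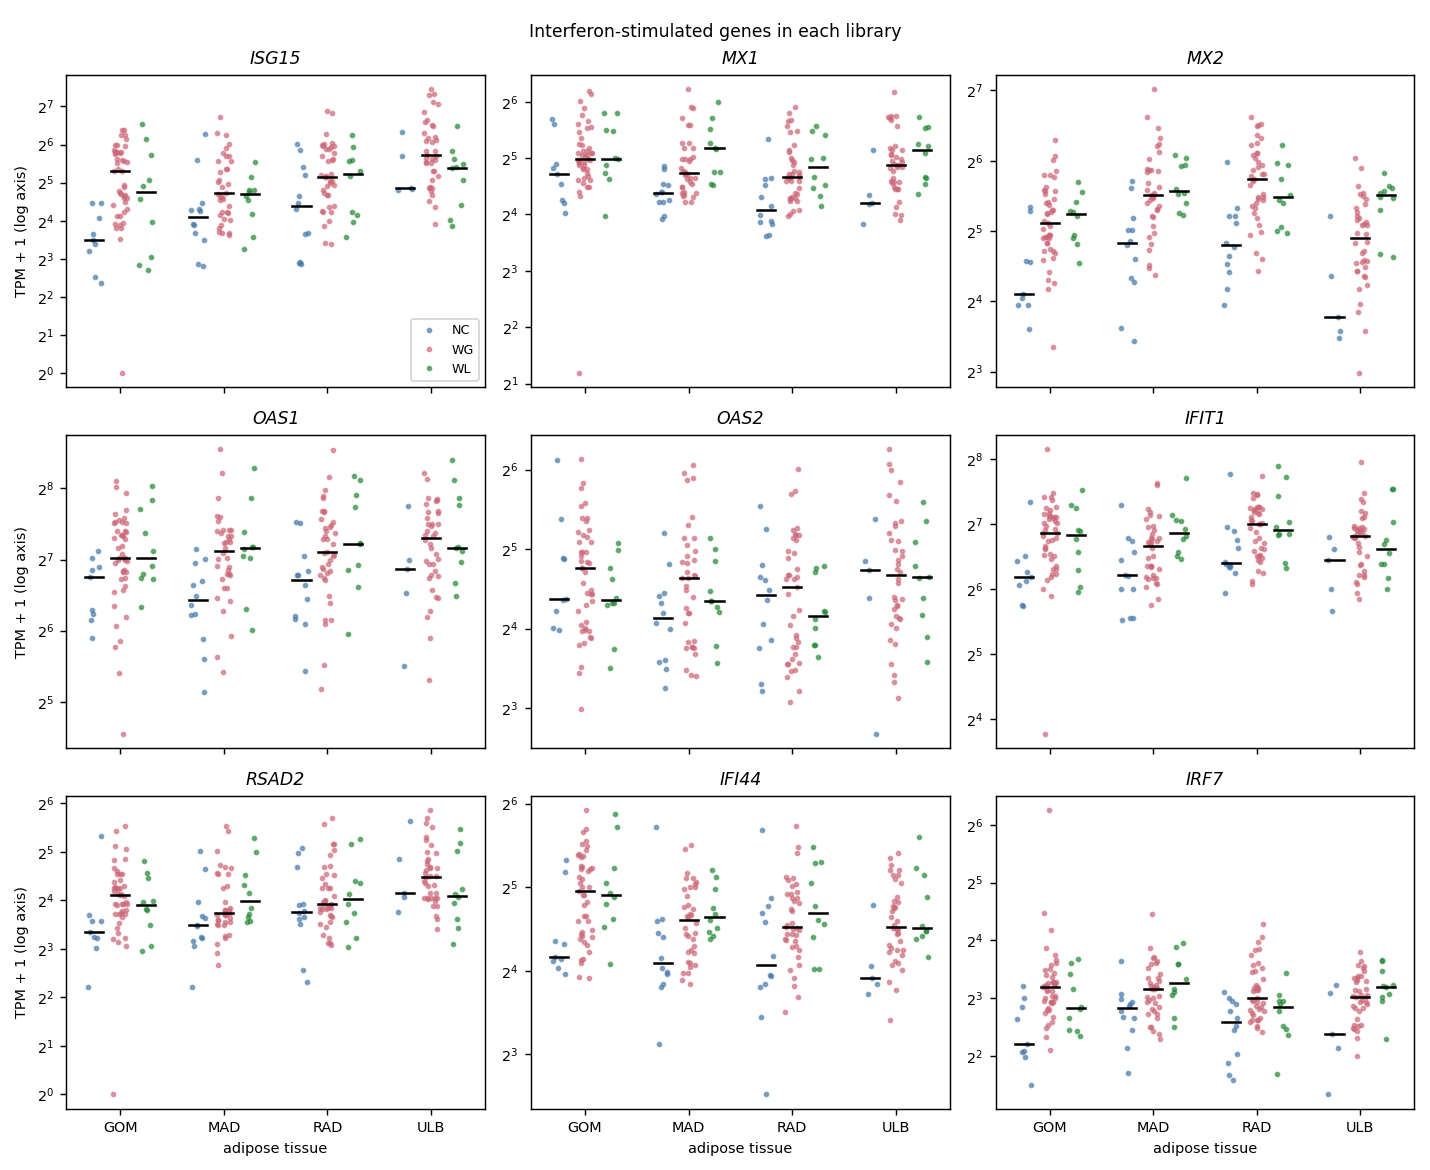
Level of each gene in each library (TPM + 1, log2 axis) by AT and diet; points are libraries and black bars group medians. The lowest point of ISG15, MX1, OAS1, IFIT1 and RSAD2 and the highest of IRF7 are WG GOM replicate 35, and every pair of neighbouring groups overlaps.

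Whether the genes changed with weight gain was asked by comparing WG with NC in each AT. Of the 36 gene-by-AT tests, 4 were called higher in WG (ISG15 and IRF7 in GOM, MX2 in MAD and in RAD) and 0 lower, by the edgeR quasi-likelihood test with an adjusted p below 0.05 over all PCGs tested and a fold change above 1.5. At an unadjusted p below 0.05, 9 were higher and 0 lower, and the share of all PCGs at that limit was not determined. DESeq2 called 3 higher and 0 lower. Over all PCGs, DESeq2 called 1581 higher and 2225 lower of 14251 in GOM, and 791 and 793 of 13845 in MAD. It called 970 and 1287 of 13571 in RAD, and 189 and 245 of 13600 in ULB. Of all PCGs tested by edgeR, 12.2% were called higher and 14.5% lower in GOM, 5.38% and 5.29% in MAD, 7.1% and 9.6% in RAD, and 0.507% and 1.87% in ULB. By AT, 2 of the 9 genes passed in GOM, 1 each in MAD and RAD, and 0 in ULB. A log2 fold change above 0 was seen for 8, 9, 7 and 8 of the 9 genes in GOM, MAD, RAD and ULB, with medians of 0.29, 0.31, 0.24 and 0.44. The medians over all PCGs were 0.00, -0.01, 0.00 and 0.01. These fold changes came from counts scaled by TMM, which sets the typical PCG near 0. On the scale of log2(TPM + 1) the median PCG itself was higher in WG, by 0.23 (GOM), 0.17 (MAD), 0.23 (RAD) and 0.13 (ULB), so that TPM ratios below run above the fold changes. By limma on that scale, 8 tests were called higher and 0 lower, where limma also called more PCGs higher, at 2932 of 14251 (GOM), 1151 of 13845 (MAD), 1938 of 13571 (RAD) and 222 of 13600 (ULB).

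ISG15, the ubiquitin-like modifier, was higher in WG than in NC in GOM. Its level in NC GOM was 4.17 TPM in the lowest library, 10.3 TPM at the median and 21.02 TPM in the highest, and 0, 38.4 and 83.2 TPM in WG GOM. Replicate 35 was the WG library at 0, the next lowest was at 10.6 TPM, and 33 of 45 WG libraries were above every NC library. The fold change was 2.75 (log2 1.46, SE 0.38, edgeR adjusted p = 0.00221, from 0.000136 to 0.228 over the alternatives). Here and below, the alternatives include a fit with the replicate number as a block, although the numbers do not pair diets. Without replicate 35 it was 1.51 on the log2 scale (adjusted p = 0.000478). Among libraries with at least 90% of TPM on PCGs, of which NC GOM had 2, it was 1.28 and not called (adjusted p = 0.228). Adipocyte markers moved with this difference, with summed levels of 5380 to 10233 TPM in NC GOM (median 7982) and 4772 to 25621 TPM in WG GOM (median 15099.7). The median sum of erythroid markers was 615 TPM in NC GOM and 2042 TPM in WG GOM, and that of the mesothelial marker found (1 of 4) 71.8 and 40.2 TPM. The part of these markers in the difference was not tested.

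In the other ATs ISG15 did not pass the test. Its NC median, WG median and log2 fold change were 16.02 TPM, 25.4 TPM and 0.44 (SE 0.31) in MAD, and 20.1 TPM, 34.7 TPM and 0.49 (SE 0.32) in RAD. The NC ULB libraries were at 27.1, 27.6, 28.2, 50.9 and 79.4 TPM, and those of WG ULB ran from 13.97 over 51.6 to 176 TPM. The groups of ULB thus overlapped over the whole NC range (log2 0.56, SE 0.44).

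Of the GTPases, MX2 was higher in WG in MAD and RAD. Its lowest, median and highest levels were 9.85, 27.4 and 51.6 TPM in NC MAD and 19.7, 44.6 and 129 TPM in WG MAD. The log2 fold change was 0.65 (SE 0.20, edgeR adjusted p = 0.0168, 0.00186 to 0.649 over the alternatives). In RAD, MX2 was at 14.4, 26.8 and 61.9 TPM in NC and at 20.5, 52.5 and 97.8 TPM in WG (log2 0.62, SE 0.17, adjusted p = 0.00318, 0.0001 to 0.295 over the alternatives). In both ATs 13 WG libraries were above every NC library and the ranges overlapped.

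The rise of MX2 was smaller and not called among libraries with at least 90% of TPM on PCGs, at 0.54 in MAD (adjusted p = 0.081) and 0.50 in RAD (adjusted p = 0.13). In GOM it was 0.47 (SE 0.20, adjusted p = 0.0518), and 0.62 and called without NC GOM replicate 6 (adjusted p = 0.0195), the library rich in B cell markers. Among libraries with at least 90% of TPM on PCGs, with 2 of NC, its direction in GOM turned to -0.25 (adjusted p = 0.648). MX2 in ULB was 10.1, 10.9, 12.6, 19.5 and 36.3 TPM in NC and 6.88, 28.8 and 64.5 TPM in WG (log2 0.63, SE 0.30, adjusted p = 0.291). The macrophage markers, all 7 found and none at a group median of 0, summed to 191 to 608 TPM in NC MAD (median 362) and 291 to 1259 TPM in WG MAD (median 810). In RAD they summed to 202 to 676 TPM in NC (median 478) and 299 to 1895 TPM in WG (median 730), and their part in the MX2 levels was not tested.

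MX1 was not called in any AT. Its NC and WG medians were 25.2 and 30.7 TPM in GOM, 19.9 and 25.7 TPM in MAD, 15.9 and 24.5 TPM in RAD, and 17.5 and 28.3 TPM in ULB. The log2 fold changes were 0.01 (SE 0.22), 0.39 (SE 0.16), 0.35 (SE 0.18) and 0.48 (SE 0.26).

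IRF7, the transcription factor of the group, was at 1.83, 3.64 and 8.20 TPM in NC GOM and at 3.31, 8.14 and 75.4 TPM in WG GOM. Of the WG libraries, 44 were above the NC median, and 22 of 45 were above every NC library. The log2 fold change was 0.83 (SE 0.34, edgeR adjusted p = 0.0461, 0.000127 to 0.299 over the alternatives). Without replicate 35, the library at 75.4 TPM, it was 0.58 (adjusted p = 0.0108), under the fold change of 1.5, and it was then not called. In RAD, IRF7 had medians of 5.04 TPM in NC and 7.01 TPM in WG with a log2 fold change of 0.50 (SE 0.18, adjusted p = 0.029), also under that limit.

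The RNA-binding and enzymatic members did not pass the test in any AT. OAS1 had log2 fold changes of 0.21 (SE 0.22) in GOM, 0.48 (SE 0.19) in MAD, 0.24 (SE 0.21) in RAD and 0.28 (SE 0.28) in ULB. OAS2 was at -0.33 (SE 0.22), 0.31 (SE 0.23), -0.14 (SE 0.24) and 0.10 (SE 0.36) in the same order. IFIT1 was at 0.30, 0.17, 0.08 and 0.36, with SEs of 0.15 to 0.24. RSAD2 was at 0.29, 0.14, -0.01 and -0.13 (SEs of 0.24 to 0.29), and IFI44 at 0.28, 0.14, 0.10 and 0.44 (SEs of 0.18 to 0.24).

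**Figure D2:**
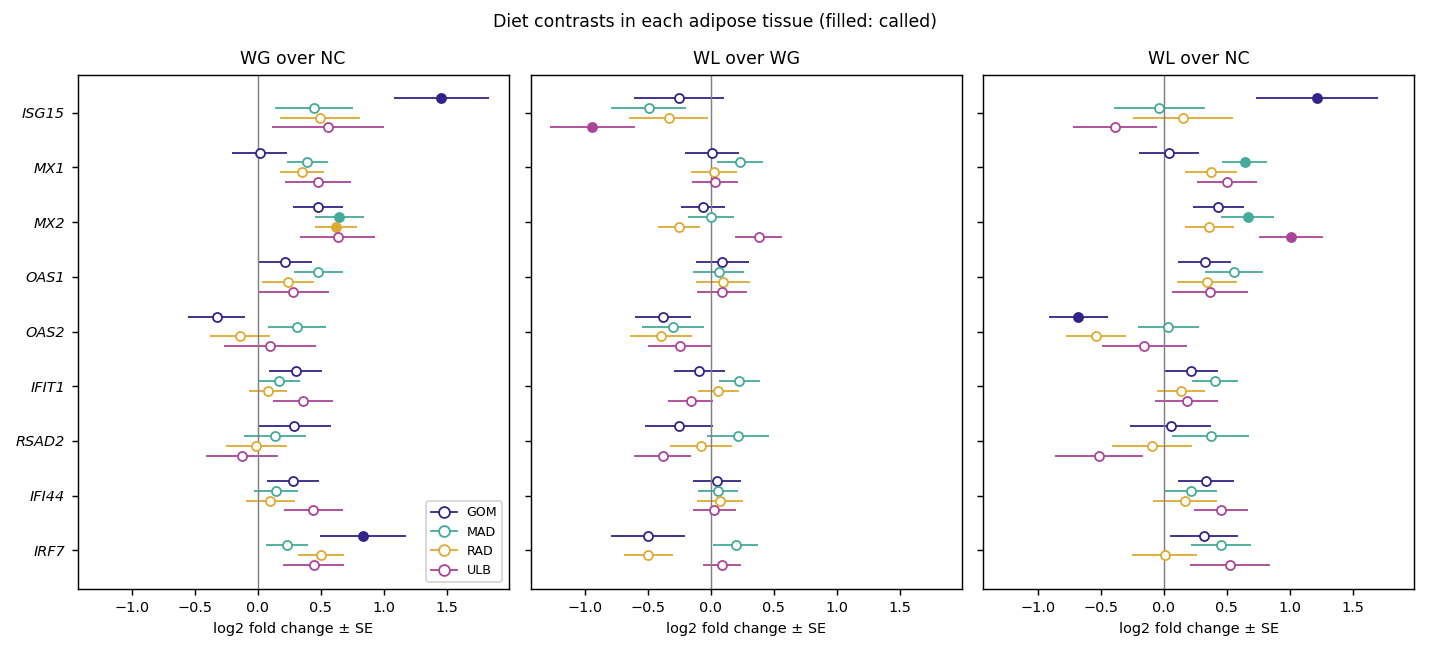
Fold change of each gene (log2, points with SE bars; filled when called) between diets in each AT, for WG over NC, WL over WG and WL over NC. ISG15 in GOM (1.46) and MX2 in MAD (0.65) and RAD (0.62) are called higher in WG than in NC. IRF7 in GOM is too, but not without replicate 35. ISG15 in ULB is called lower in WL than in WG (-0.94). In WL over NC, ISG15 in GOM, MX1 and MX2 in MAD and MX2 in ULB are called higher, and OAS2 in GOM lower. The contrasts share libraries.

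Whether the levels returned with weight loss was asked by comparing WL with WG, which shares the WG libraries with the contrast above. Of 36 tests, 0 were called higher and 1 lower by edgeR, and the same counts came from DESeq2. At an unadjusted p below 0.05, 1 was higher (MX2 in ULB, log2 0.38, SE 0.19) and 2 lower (ISG15 in ULB and IRF7 in RAD). The share of all PCGs at the unadjusted limit was not determined. Of all PCGs tested, 2.55% were called higher and 2.71% lower in GOM, 8.26% and 9.17% in MAD, 2.24% and 4.13% in RAD, and 3.22% and 4.9% in ULB. The median log2 fold change of the 9 genes was -0.09 (GOM), 0.06 (MAD), -0.08 (RAD) and 0.03 (ULB), beside -0.04, -0.02, -0.01 and -0.02 over all PCGs.

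ISG15 in ULB was the member called lower in WL. Its levels were 13.97, 51.6 and 176 TPM in WG and 13.6, 41.05 and 88.4 TPM in WL, and 2 of 10 WL libraries were above the WG median. From WG to WL the median sum of neutrophil markers (3 of 4 found) was 165 and 40.6 TPM and that of adipocyte markers 15669 and 22166 TPM, and their part in it was not tested. The log2 fold change was -0.94 (SE 0.34, edgeR adjusted p = 0.0441). It was called in 2 of 8 alternatives, with adjusted p from 0.0145 to 0.64, and by limma on log2(TPM + 1) it was -0.65 (adjusted p = 0.115). IRF7 in RAD had medians of 7.01 TPM in WG and 6.17 TPM in WL, with a log2 fold change of -0.50 (SE 0.19, adjusted p = 0.0785). OAS2 was at -0.38 (SE 0.22) in GOM, -0.30 (SE 0.25) in MAD, -0.40 (SE 0.24) in RAD and -0.25 (SE 0.25) in ULB, and did not pass the test. IRF7 in GOM was at -0.50 (SE 0.29).

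The WL and NC groups were also compared directly, with the same NC libraries as in WG over NC. Here 4 of 36 tests were called higher in WL (ISG15 in GOM, MX1 and MX2 in MAD, MX2 in ULB) and 1 lower (OAS2 in GOM). Of all PCGs tested, 15.4% were called higher and 20.7% lower in GOM, 15.2% and 17.8% in MAD, 10.2% and 16.6% in RAD, and 5.39% and 9.37% in ULB. By limma on log2(TPM + 1), where the median PCG was higher in WL by 0.26, 0.20, 0.29 and 0.23 in GOM, MAD, RAD and ULB, 11 were called higher and 0 lower, where limma called 3996 of 14440 (GOM), 3095 of 14170 (MAD), 3468 of 13782 (RAD) and 2234 of 13878 PCGs (ULB) higher. The median log2 fold change of the 9 genes was 0.32 (GOM), 0.41 (MAD), 0.15 (RAD) and 0.37 (ULB), beside -0.01, -0.01, 0.00 and -0.03 over all PCGs.

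MX2 in ULB was at 10.1, 10.9, 12.6, 19.5 and 36.3 TPM in NC and at 23.7, 44.6 and 55.9 TPM in WL. The WL libraries were all above 4 of the 5 NC libraries, and 8 of 10 were above all 5. Marker sums moved with it, from NC to WL medians of 580 to 857 TPM (macrophage), 15090.4 to 22166 TPM (adipocyte), 394 to 531 TPM (endothelial, 2 of 3 found) and 308 to 1408 TPM (erythroid), and their part in it was not tested. The log2 fold change was 1.01 (SE 0.25, edgeR adjusted p = 0.0115, 0.00107 to 0.0883 over the alternatives). It was 0.86 to 1.32 when each NC ULB library was left out in turn, and was called each time. It was 0.96 and not called among libraries with at least 90% of TPM on PCGs (adjusted p = 0.0883).

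In MAD, MX2 was at 9.85, 27.4 and 51.6 TPM in NC and 36.3, 46.5 and 66.6 TPM in WL (log2 0.67, SE 0.21, edgeR adjusted p = 0.013). MX1 was at 14.1, 19.9 and 28.2 TPM in NC MAD and 21.99, 35.02 and 62.6 TPM in WL MAD (log2 0.64, SE 0.18, adjusted p = 0.00549). All 10 WL libraries were above the NC median for both genes. Of these 10 libraries, 3 were rich in B cell markers, and T cell markers (4 of 4 found) reached 567 TPM in WL MAD against 31.3 TPM in NC MAD. Without the 3 libraries the log2 fold change was 0.63 for MX2 (adjusted p = 0.054) and 0.42 for MX1 (adjusted p = 0.0796), and neither was called. The calls over all PCGs in MAD also fell without them, from 2160 to 1373 higher and from 2529 to 1913 lower. Among libraries with at least 90% of TPM on PCGs, of which WL MAD had 3, neither MX2 nor MX1 was called either.

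ISG15 in GOM was at 5.54, 26.1 and 91.9 TPM in WL against 4.17, 10.3 and 21.02 TPM in NC (log2 1.22, SE 0.48, edgeR adjusted p = 0.0391). Of the 10 WL libraries, 6 were above every NC library and 3 were at or below the NC median. By limma on log2(TPM + 1) it was 1.04 and not called (adjusted p = 0.059).

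OAS2 in GOM was at 14.8, 19.7 and 68.4 TPM in NC and 10.4, 19.5 and 32.9 TPM in WL. The medians were thus nearly the same in TPM, while the log2 fold change was -0.68 (SE 0.24, edgeR adjusted p = 0.0195). By limma on log2(TPM + 1) it was -0.29 (adjusted p = 0.347). Without NC GOM replicate 6, the library at 68.4 TPM, it was -0.45 and not called (adjusted p = 0.0713).

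Whether the diet differences differed between ATs was tested as an interaction over all 4 ATs. The fit took all libraries as independent, although same-number libraries of different ATs may be of the same pig. No member passed an adjusted p of 0.05 by the edgeR quasi-likelihood F-test, with adjusted p from 0.37 to 0.983 for NC and WG and from 0.236 to 1.00 for WG and WL. At an unadjusted p below 0.05, there were 0 members for NC and WG and 1 for WG and WL (IRF7, p = 0.0323). The share of all PCGs past an adjusted p of 0.05 was 6.57% for NC and WG and 6.85% for WG and WL. The call of ISG15 in GOM and not in the other ATs therefore did not pass a test of the difference itself.

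Between ATs of WG, 7 of 54 tests were called, 5 higher and 2 lower in the AT named first below, beside 10.8% of the tests of all PCGs over the 6 pairs of ATs. ISG15 was highest in ULB, where MX2 was lowest. The median of ISG15 was 51.6 TPM in ULB, 38.4 TPM in GOM, 34.7 TPM in RAD and 25.4 TPM in MAD. It was higher in ULB than in GOM by 0.90 on the log2 scale (SE 0.21, edgeR adjusted p = 0.000153), than in MAD by 1.08 (SE 0.21, adjusted p = 1.72e-05) and than in RAD by 0.70 (SE 0.21, adjusted p = 0.00493). The median of MX2 was 52.5 TPM in RAD, 44.6 TPM in MAD, 33.8 TPM in GOM and 28.8 TPM in ULB. MX2 was higher in RAD than in GOM by 0.65 (SE 0.11, adjusted p = 7.14e-07). It was lower in ULB than in MAD (log2 -0.69, SE 0.13, adjusted p = 1.51e-05) and than in RAD (log2 -0.83, SE 0.12, adjusted p = 4.58e-08). MAD over GOM was 0.50 (SE 0.12, adjusted p = 0.00115), under the fold change of 1.5.

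RSAD2 was higher in ULB (median 21.5 TPM) than in MAD (12.2 TPM) by 0.65 (SE 0.16, edgeR adjusted p = 0.000383). ULB over GOM (16.3 TPM) was 0.54 (SE 0.15) and ULB over RAD (14.3 TPM) 0.43 (SE 0.15), with adjusted p of 0.00226 and 0.0157 but under the fold change of 1.5. The other 6 genes were not called between ATs, with log2 differences of -0.35 (IRF7, ULB over GOM) to 0.33 (IFIT1, RAD over MAD). The counts of 5 higher and 2 lower were the same without replicate 35 and with the replicate number as a block.

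A list of 86 other interferon genes was set beside the 9, of which 72 were found (4 of 6 ligands, 5 of 5 receptors, 10 of 10 mediators, 10 of 10 sensors, 37 of 49 induced effectors and 6 of 6 inhibitors). In WG over NC, 7 of 68 tested in GOM were called higher and 1 lower, where 12.2% of all PCGs were called higher and 14.5% lower. In the other ATs none was called lower, and those called higher were 7 of 67 (MAD), 10 of 66 (RAD) and 0 of 67 (ULB), beside 5.38%, 7.1% and 0.507% of all PCGs, with 11 higher and 2 lower in ULB at an unadjusted p below 0.05. The share of all PCGs at the unadjusted limit was not determined. The list had a median log2 fold change of 0.14, 0.27, 0.29 and 0.29 in GOM, MAD, RAD and ULB. The largest changes called were those of IFI6, a mitochondrial interferon-induced protein (2.09, SE 0.48, in GOM), BST2, the tetherin that holds back budding virus (1.96, SE 0.42, in GOM), and TLR8, an endosomal sensor of RNA (1.54, SE 0.33, in MAD). Of the receptors and mediators named in the pathway, none was called, and those past the adjusted p but under the fold change of 1.5 moved both ways in GOM, where STAT2 was at 0.56 (SE 0.15) and TYK2 at 0.22 (SE 0.09), but IRF9 at -0.56 (SE 0.21) and IFNGR1 at -0.24 (SE 0.09). In RAD, IFNAR1 was at 0.30 (SE 0.10), IFNAR2 at 0.39 (SE 0.13), IFNGR2 at 0.45 (SE 0.16) and STAT2 at 0.29 (SE 0.11), and in MAD, IFNGR2 was at 0.50 (SE 0.17). The gene called lower in GOM was IFNLR1, a receptor chain of type III interferons, named after its values were seen. By limma on log2(TPM + 1), 59 of the summed tests were called higher and 0 lower, against 24 and 1 on counts, and the calls over all PCGs rose on that scale too, as given above.

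In WL over WG, 17 of 68 of these genes were called higher in MAD, beside 8.26% of all PCGs, and in the other ATs 1 was called higher and 2 lower in all. The median over the list in MAD was 0.31, beside 0.06 for the 9 members. The largest changes called were those of CXCL9 (2.11, SE 0.41) and CXCL10 (1.61, SE 0.42), chemokines that draw T cells, and of IFNG, the type II interferon made by lymphocytes (1.81, SE 0.50), all in MAD. Without the libraries rich in B cell markers, the count over all ATs fell from 18 to 3 higher, and it was 0 among libraries with at least 90% of TPM on PCGs.

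In WL over NC the list had 33 of 68 genes called higher and 0 lower in MAD, 12 higher and 5 lower in GOM, 12 higher and 2 lower in RAD, and 4 higher and 0 lower in ULB, of 67 tested in each of these. All PCGs were called higher at 15.2% in MAD, 15.4% in GOM, 10.2% in RAD and 5.39% in ULB, and lower at 20.7% in GOM. The largest changes called were those of CXCL9 (2.97, SE 0.58), CXCL10 (2.34, SE 0.56) and IRF8, a transcription factor of myeloid and B cells (2.18, SE 0.38), in MAD. The summed markers of other cells moved with these, from NC to WL medians of 16.2 to 44.9 TPM (T cell), 44.7 to 191 TPM (B cell) and 362 to 824 TPM (macrophage) in MAD, and their part in it was not tested. Without the libraries rich in B cell markers, the calls higher over all ATs fell from 61 to 46. The calls higher over all PCGs then went from 2160 to 1373 in MAD and from 2229 to 2221 in GOM. IFNGR2, a chain of the type II receptor (0.98, SE 0.18), and IFNAR2 (0.72, SE 0.15) were called higher in MAD. IRF9, a DNA-binding partner of STAT2, was called lower in GOM (-0.68, SE 0.19) and RAD (-0.67, SE 0.22). Between ATs of WG the largest differences called were in ULB over GOM. There SOCS3, an inhibitor of JAK signalling, was at 1.34 (SE 0.21). SAMHD1, a hydrolase of deoxynucleoside triphosphates, was at -1.09 (SE 0.10), and CXCL11 at -1.05 (SE 0.28).

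The spread between WG libraries of an AT was wide for some members. The SD of log2(TPM + 1) of ISG15 was 0.83 in GOM without replicate 35, 0.85 in MAD, 0.85 in RAD and 0.89 in ULB, above 93.1%, 93.8%, 94.1% and 93.9% of PCGs. OAS2 had SDs of 0.66, 0.74, 0.77 and 0.78, above 85.3% to 91.9% of PCGs. IFIT1 and IRF7 lay nearer the middle, with SDs of 0.46 and 0.45 in GOM without replicate 35 and of 0.41 to 0.48 elsewhere, above 48.0% to 68.0% of PCGs in MAD, RAD and ULB. The median SD of all PCGs was 0.39 to 0.42 in these libraries.

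Whether a level in an AT went with the level in another AT was asked in WG libraries of the same replicate number. The sources used here do not state that the number marks the pig. Of 54 correlations (9 genes, 6 pairs of ATs, 30 to 39 numbers each), 52 had an adjusted p below 0.05 by a 2-sided permutation test, all positive, with a median Pearson r of 0.68. Without replicate 35 all 54 passed. Over all 12747 PCGs the median r was 0.41 to 0.56 by pair of ATs and 0.51 over the pairs. Most genes therefore went together between same-number libraries, and the members are read against that level.

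OAS1 and OAS2 were the highest, with median r over the 6 pairs of 0.83 and 0.79, above 95.6% and 92.4% of PCGs. OAS1 in MAD and RAD had a Pearson r of 0.909 and a Spearman rho of 0.842 (31 numbers, p = 1e-05 for each, the smallest that 100000 permutations can give, adjusted p = 1.86e-05 and 2.84e-05), and r was 0.861 without the 2 farthest samples. IFI44 (0.73, above 84.2%), IFIT1 (0.69, 78.8%), MX1 (0.67, 75.6%) and ISG15 (0.66, 74.5%) followed. RSAD2 (0.58, 62.4%), IRF7 (0.58, 61.8%) and MX2 (0.55, 56.5%) were near the middle of all PCGs.

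The correlations that missed the limit were those of IRF7 and ISG15 between GOM and RAD. For IRF7, r was 0.267 (39 numbers, permutation p = 0.0963, adjusted p = 0.0963) and rho 0.403 (p = 0.0113, adjusted p = 0.0115), and r was 0.404 without replicate 35 (adjusted p = 0.0121). For ISG15, r was 0.313 (permutation p = 0.0512, adjusted p = 0.0521) and rho 0.485 (p = 0.0019, adjusted p = 0.00233), and r was 0.556 without replicate 35 (adjusted p = 0.000384). IRF7 between GOM and ULB was at 0.335 (38 numbers, permutation p = 0.0393, adjusted p = 0.0408) with rho 0.319 (p = 0.0516, adjusted p = 0.0516). It rested on few samples, since r was 0.199 without the 2 farthest (adjusted p = 0.244).

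**Figure D3:**
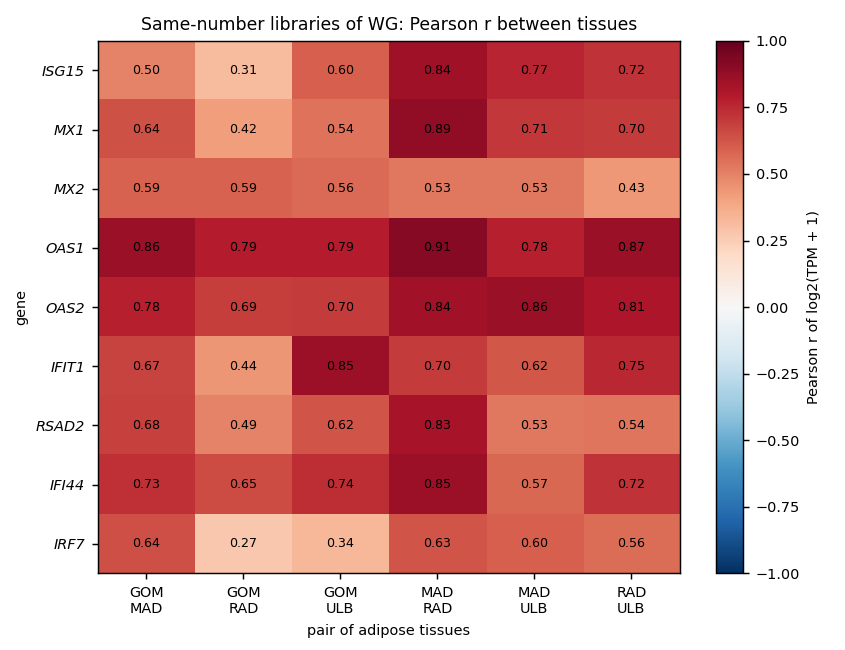
Pearson r of log2(TPM + 1) between WG libraries of the same replicate number, for each gene (rows) and pair of ATs (columns). OAS1 and OAS2 are at 0.69 to 0.91 in every pair, and the lowest values are those of IRF7 (0.27) and ISG15 (0.31) between GOM and RAD.

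Within ATs of WG the 9 genes formed 36 pairs, and 144 correlations over the 4 ATs. Of these, 83 positive and 6 negative had an adjusted p below 0.05 by the permutation test, and 77 positive and 2 negative without replicate 35. The median r was 0.50 in GOM (0.30 without replicate 35), 0.40 in MAD, 0.42 in RAD and 0.40 in ULB, where the median over all pairs of PCGs was 0.11, 0.11, 0.07 and 0.09.

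Some pairs went together in all 4 ATs. IFIT1 and IFI44 were at r = 0.74 to 0.80, ISG15 and IFI44 at 0.64 to 0.84, MX1 and RSAD2 at 0.74 to 0.89, MX1 and MX2 at 0.49 to 0.81, and OAS1 and OAS2 at 0.59 to 0.70. These ranges include replicate 35. Without it, the GOM values were 0.883, 0.779, 0.737, 0.665 and 0.629 in the same order. For ISG15 and IFI44 in RAD, r was 0.837 and rho 0.798 (39 libraries, permutation p = 1e-05 for each, adjusted p = 5.33e-05 and 0.000103), and r was 0.801 without the 2 farthest. For MX1 and RSAD2 in RAD, r was 0.757 and rho 0.648 (permutation p = 1e-05 and 2e-05, adjusted p = 5.33e-05 and 0.000144), and r was 0.685 without the 2 farthest.

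ISG15 and OAS2 did not go together. Their r was -0.15 in MAD and -0.19 in RAD, past no limit. In ULB it was -0.372 (38 libraries, permutation p = 0.0212, adjusted p = 0.0364), rho was -0.41 (p = 0.0106, adjusted p = 0.0238), and r was -0.458 without the 2 farthest. In GOM it was -0.0502 with replicate 35 (permutation p = 0.747, adjusted p = 0.804), where rho was -0.349 (p = 0.0195, adjusted p = 0.039). It was -0.437 without that library (adjusted p = 0.00854).

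The other 5 negative correlations were those of IRF7 with ISG15, MX1, OAS1, IFIT1 and RSAD2 in GOM, and rested on replicate 35. For IFIT1 and IRF7, r was -0.568 (45 libraries, permutation p = 0.00498, adjusted p = 0.011), rho was -0.196 (p = 0.197, adjusted p = 0.289), and r was -0.118 without replicate 35 (adjusted p = 0.559). In the other ATs IRF7 went with MX1 at 0.40 to 0.54, while IRF7 and IFIT1 were at -0.05 to 0.05.

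**Figure D4:**
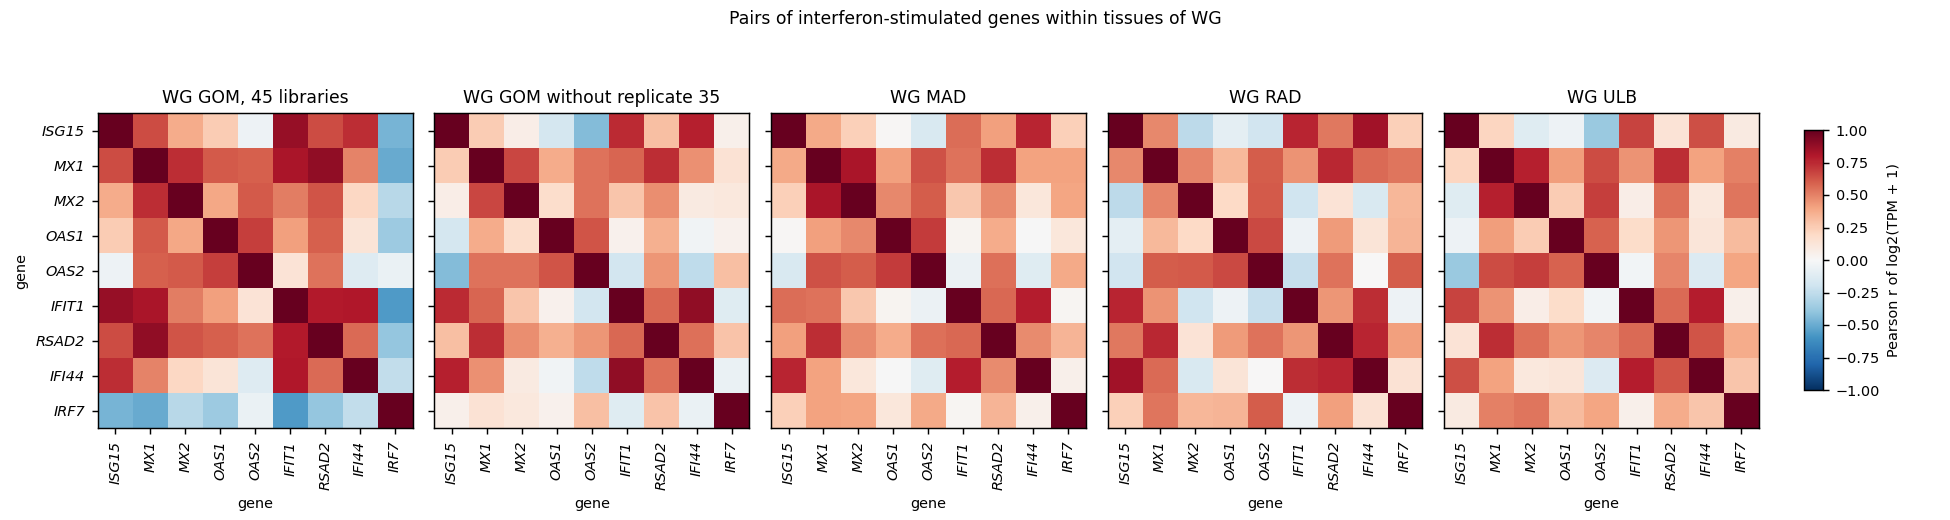
Pearson r of log2(TPM + 1) for each pair of genes within the WG libraries of an AT, with GOM shown for all 45 libraries and without replicate 35. The IRF7 row of GOM is negative throughout (to -0.57) with replicate 35 and near or above 0 without it, and ISG15 with OAS2 is below 0 in every panel.

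The PCGs most like the 9 genes in WG, by the mean over ATs of the Spearman rho with the mean standardized level of the 9, were HERC5 (0.77), DHX58 (0.76), HERC6 (0.69), PARP14 (0.68), CMPK2 (0.67), RIGI (0.67), ENSSSCG00000034802 (0.67), ZBP1 (0.66), DTX3L (0.64) and DDX60 (0.63). HERC5 is a ligase that attaches ISG15, and DHX58 and RIGI are helicases of the RNA-sensing pathway. Of these 10, 9 were in the list of other interferon genes, and the same 10 came without replicate 35. The median over 12738 PCGs was 0.09, and over 66 other interferon genes 0.33. Among the members themselves, each against the mean of which it is a part, MX1 (0.85) and RSAD2 (0.80) were nearest and IRF7 (0.38) and ISG15 (0.47) farthest.

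The chromatin at the genes was described by the A-B index of Hi-C, a score per 20-kb bin that is positive in the active compartment A and negative in compartment B. By sample, 42.9% to 51.0% of all bins had a positive index, and the share among gene starts was not determined. At the start of 7 of the 9 genes the index was positive in 240 of 240 samples, and at RSAD2 in 239. At IFI44 it was positive in 6 of 240, and the group means were -1.51 (WL GOM) to -0.71 (WL RAD), although IFI44 was expressed in every library. ISG15 (group means of 5.09 to 5.98) and IRF7 (5.44 to 5.95) had the highest indices. The means of MX1 ran from 2.39 ± 0.67 (SD, n = 9) in NC GOM to 4.81 ± 0.81 (SD, n = 10) in WL RAD, and those of MX2 from 2.01 ± 0.57 (SD, n = 9) to 4.40 ± 0.74 (SD, n = 10) in the same groups. In each AT the mean was lowest in NC for MX1 and MX2, and likewise for ISG15 and OAS2. The share of all bins with this order was not determined. The index was not tested here, and the contact counts behind it were not used here.

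**Figure D5:**
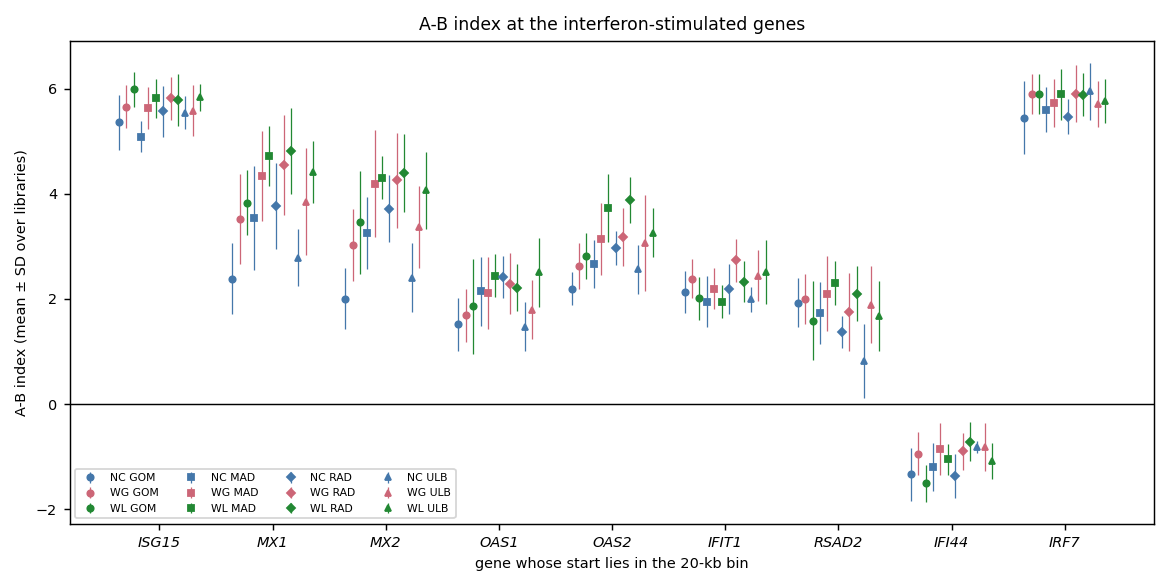
A-B index of the 20-kb bin that holds the start of each gene (mean and SD over the Hi-C samples of a group; colour for diet, marker shape for AT). IFI44 is below 0 in all 12 groups, and the means of ISG15, MX1, MX2 and OAS2 are lowest in NC within each AT.

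H3K27ac, a histone mark of active promoters and enhancers, was read from 18 tables of enhancer regions called on pooled reads. All 18 had a region within 10 kb of 7 of the genes, 16 of IRF7 and 10 of IFI44. IFI44 lacked a region in 7 of 10 WG tables and 1 of 4 WL tables. RSAD2 and IFIT1 each lay by a super-enhancer, as marked by the authors, in 6 tables. For RSAD2 these were 4 of 4 NC, 1 of 10 WG and 1 of 4 WL tables, and for IFIT1 3, 1 and 2. In NC the regions at RSAD2 were 126200 to 163400 bases wide. OAS1 and OAS2 lay by a shared super-enhancer in 3 tables, and MX2 and IRF7 by a super-enhancer in 1 each. The share of all genes by a region or a super-enhancer was not determined. The ratio of H3K27ac to input signal at MX2 was 1.61 to 3.61 in 4 NC tables, 2.24 to 4.57 in 10 WG tables and 4.06 to 5.90 in 4 WL tables. At ISG15 it was 1.22 to 2.50, 2.02 to 3.55 and 3.22 to 4.53. The median ratio of all regions in a table also differed, at 1.48 to 1.71 in NC, 1.55 to 1.81 in WG and 1.85 to 1.92 in WL. The regions also differed in width, at ISG15 from 8600 to 77800 bases in NC, 12200 to 25800 in WG and 19000 to 25000 in WL, and without replicates these ratios have no test.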

How the data were processed

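Total RNA of whole adipose tissue was depleted of ribosomal RNA, made into stranded libraries and sequenced. The authors quantified transcripts with kallisto 0.43.0 on Sscrofa11.1 (Ensembl 102) and summed them to genes with tximport 1.6.0, and deposited estimated counts and TPM per PCG. Of the counts 17.8% were 0. In all, 9 count columns and 9 A-B columns matched no sample and were not used. The paper counts more NC libraries of GOM and ULB than were used here, and it took 9 pig adipose samples from public data. Whether the unused columns hold these was not determined. The deposited A-B index is a score per 20-kb bin that the authors computed from Hi-C, and the deposited H3K27ac and input signal of enhancer regions came from pooled reads (BWA 0.7.15, SAMtools 1.3.1, SICER and ROSE by the authors).

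Counts were rounded, kept for PCGs above 0.5 TPM in 80% or more of the libraries of either group, scaled by TMM and tested by edgeR 4.0.16 (quasi-likelihood, Benjamini-Hochberg over all PCGs tested). After the study's rule, calls needed an adjusted p under 0.05 together with a change of more than 1.5-fold. Alternatives were RLE size factors, DESeq2 1.42.0, limma 3.58.1 on log2(TPM + 1) and log2(TPM + 0.1), no TPM filter, no fold limit, a replicate block, a term for PCG share, only libraries of high PCG share, and leaving out each NC ULB library. Leaving out WG GOM replicate 35, or libraries rich in B cell markers, was chosen after seeing the data. Correlations used 100000 permutations, adjusted by family of 54 or 144. The tests were tested on simulated data. The genes named are the 9 members, the 3 other interferon genes with the largest change called per contrast, the receptors and mediators, and the 10 genes most like the members, except an item that is not reported here. Members and lists were chosen with earlier results of these data known. P-values measure the spread between the samples given.

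Same-number libraries had a correlation of deviations over 0.1 in 30 of 30 pairs of WG MAD and ULB and 33 of 33 of WG RAD and ULB, but in 35 of 36 of GOM and MAD, 37 of 39 of GOM and RAD, 37 of 38 of GOM and ULB, and 30 of 31 of MAD and RAD. The numbers come from the labels and do not pair diets.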

Additional observations from a re-analysis of the deposited data

Results flagged for a closer look

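In groups of 4 to 10 samples, 6 of 54 gene-by-group sets had a highest library far from the rest by Dixon's criterion. Chance gives this in about 5% of sets if they are independent and normally distributed. The levels were TPM without a log and some flags share a library, so the 5% is not a fair measure here. In NC ULB, replicate 12 was highest for MX1 (34.5 TPM) and IFI44 (26.7 TPM). In NC GOM, replicate 6, the library rich in B cell markers, was highest for OAS2 (68.4 TPM), IFIT1 (162 TPM) and RSAD2 (39.3 TPM). In WL MAD, replicate 2 was highest for IFIT1 (208 TPM).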

How the results depend on the processing

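For the 9 genes, the 4 calls higher in WG over NC became 0 with the replicate block, 0 among libraries of high PCG share, and 8 and 9 by limma with pseudocounts of 1 and 0.1. The calls over all PCGs moved alike, in GOM from 1741 higher to 142, 129, 2932 and 3245 under the same settings. The 1 call lower in WL over WG became 0 with no TPM filter, with the block and by limma with either pseudocount. It was 1 with the term for PCG share and among libraries of high PCG share, but there it was IRF7 (in GOM and in RAD) and not ISG15 in ULB. The 4 calls higher in WL over NC became 2 among libraries of high PCG share, 2 without libraries rich in B cell markers, and 11 and 14 by limma, and the 1 lower became 0 with no TPM filter, by limma with either pseudocount, and without libraries rich in B cell markers. Beside the calls higher in WL over NC, those over all PCGs in MAD went from 2160 to 458, 1373, 3095 and 3456 in the same order. The 7 calls between ATs became 11 with no fold limit and were 7 with the block. With no fold limit the calls over all PCGs rose too, in ULB over GOM from 1040 higher and 1416 lower to 2943 and 3183. The numbers do not pair diets. The cause was not tested for any of these changes.

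For the other interferon genes, 24 higher in WG over NC became 7 with the block, 9 among libraries of high PCG share, 59 and 70 by limma and 56 with no fold limit. The calls higher over all PCGs moved alike, as given above, and with no fold limit rose in GOM from 1741 to 2669. The 1 lower became 4 with RLE size factors, 4 by DESeq2, 6 with no TPM filter, 0 with the block, 5 with a term for PCG share, 2 among libraries of high PCG share, 0 by limma with either pseudocount and 10 with no fold limit. In WL over WG, 18 higher became 1 with the term, 0 among libraries of high PCG share, 3 without libraries rich in B cell markers and 30 with no fold limit. The calls higher over all PCGs in MAD went from 1149 to 183, 27, 381 and 2166 under the same settings. The 2 lower in WL over WG became 1 with no TPM filter, 1 with the block, 0 with the term, 1 among libraries of high PCG share, 0 by limma and 7 with no fold limit. In WL over NC, 61 higher became 16 among libraries of high PCG share and 115 and 123 by limma. Over all PCGs the calls higher in MAD went from 2160 to 458, 3095 and 3456 under the same settings. In GOM they went from 2229 to 2449, 3996 and 4413. The 7 lower in WL over NC became 1 by limma and 16 with no fold limit. Between ATs 19 of 405 tests were called, beside 10.8% of the tests of all PCGs. With no fold limit the 19 became 87, where the calls over all PCGs rose too, as given above. Leaving out each NC ULB library gave 59 to 65 higher and 7 to 8 lower in WL over NC.

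Leaving out each NC ULB library changed none of the counts for the 9 genes. Of the same-number correlations, 52 to 54 were past the limit under the alternatives run. Precision is limited by the number of NC libraries used here, 5 in ULB and 2 of high PCG share in GOM.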
